A study of Homo sapiens with 50 samples.

Results

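GDF15 (growth differentiation factor 15) is a secreted stress cytokine, and GFRAL is the receptor it is known to bind. They are 2 of the 57905 genes in the deposited tables, matched by symbol, with GFRAL included to see whether its RNA was present. The libraries were made from H1, an established human embryonic stem cell line of wild-type genotype, either undifferentiated at day 0 or on day 3, 5, 7 or 11 of cardiac differentiation. Each of those 4 days had 6 groups. A differentiation control got no listed agent, and 3 groups got a single agent, either the acid HCl, the base NaHCO3 or IWP2. A further group got IWP2 plus NaHCO3, and the last got both of these plus 2-DG. The acid and the base serve to shift the pH of the medium. IWP2 is an inhibitor of WNT protein secretion, while 2-DG (2-deoxyglucose) competes with glucose and so blocks glycolysis. The labels give no dose, no time of addition and no measured pH, and the 2-DG group also holds IWP2 and NaHCO3, so its reference here is IWP2 with NaHCO3. All 50 libraries, 2 in each of 25 groups, come from 1 cell line, and the labels do not say whether the 2 libraries of a group are separate cultures. The p-values below therefore measure only the spread between these libraries.

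GDF15 belongs to the transforming growth factor beta superfamily and is made as a precursor that is cleaved before the mature dimer is secreted. It signals to a small population of hindbrain neurons through GFRAL and its co-receptor RET, a tyrosine kinase shared with the GDNF family receptors, and lowers food intake. Its gene is a known target of the integrated stress response, in which phosphorylation of eIF2alpha favours translation of the transcription factor ATF4 and then of its partner CHOP (DDIT3), and it is also a known target of p53.

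GDF15 and the HCl and 2-DG comparisons were chosen by its measured RNA levels, which had already been seen to be high there. Its values in those comparisons are given as a description, with no test. The other comparisons of GDF15, and those of other genes, were tested with edgeR's quasi-likelihood test, with Benjamini-Hochberg adjustment over all genes of a table. A gene was called, and is said to have risen or fallen, where the adjusted p was below 0.05 and the log2 fold change reached 1 or more in either direction. The libraries of days 3 and 5 were deposited in one table and those of days 0, 7 and 11 in another, so levels were tested only within a table. Total counts ran from 14090004 to 22796553 per library, and 1 read on GDF15 was worth between 0.021 and 0.034 FPKM (fragments per kilobase of exon, scaled to library size). The 2 libraries of the 2-DG group at day 3 stood furthest apart of all 25 pairs, with 2985 of 17286 tested genes differing by 1 or more on the log2 scale. The fold changes and counts of risen genes that rest on them are given with and without them. The number of all genes called also moved when 1 of these libraries was left out. The shares of all genes given for 2-DG at day 3 are those of the full fit, and are no background for counts without a library.

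In the GRCh37 models of the tables, GDF15 (ENSG00000130513) lies on the forward strand of chromosome 19, from 18485541 to 18499986, with an exonic length of 2087 bases. No gene of the tables overlaps it on the opposite strand. The microRNA gene MIR3189 lies within its span, at 18497372 to 18497444 on the same strand, and held at most 7 counts in any library. The nearest genes are PGPEP1, which ends 4780 bases before it, and LRRC25, which starts 1967 bases after it on the reverse strand. LRRC25 did not exceed 0.29 FPKM in any library. PGPEP1 ranged from 0.58 to 4.34 FPKM in the libraries of days 3 and 5.

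The promoter is shown because GDF15 levels differ widely between the groups described below, and the window before its start is where regulators of a gene are usually sought. RefSeq gives these 250 bases for GRCh38.p14, on the forward strand at chr19:18385908-18386157, ending just before the transcript start. This RefSeq start was not matched to the start of the GRCh37 model above, so the window need not border that model. Capitals mark the TATA box and the GC boxes.
GDF15 promoter: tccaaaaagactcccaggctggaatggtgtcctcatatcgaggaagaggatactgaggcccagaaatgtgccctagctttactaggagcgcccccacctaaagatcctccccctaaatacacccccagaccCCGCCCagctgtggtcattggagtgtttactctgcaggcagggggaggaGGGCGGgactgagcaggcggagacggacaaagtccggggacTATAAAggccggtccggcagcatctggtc
Both strands were searched. The TATA box TATAAA occurred once, its first base 29 bases before the start, and 10.7% of 35116 RefSeq promoters of this length hold one. The GC box GGGCGG occurred at 119 and 70 bases before the start, and 42.6% of promoters hold it. The C/EBP-ATF composite element TGATGNAA (3.14% of promoters), the cyclic AMP response element TGACGTCA (1.65%), the AP-1 site TGANTCA (6.57%), the EGR1 core GCGTGGGCG (0.72%) and the p53 half-site (5.57%) had 0 matches in this window. These matches describe the letters of the window and say nothing about binding.

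GFRAL (ENSG00000187871, chromosome 6, 55192267 to 55267291 in GRCh37) had 0 counts in 45 of 50 libraries and 1 count in each of the other 5. Its highest value was 0.03 FPKM, and 3 counts, the limit that a count of 0 allows, correspond to 0.0689 to 0.111 FPKM depending on the library. This limit holds for the 45 libraries at 0. GFRAL thus did not exceed 1 count in any library, those of the HCl and 2-DG groups included, and it was too low to be tested.

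The co-receptor RET was present at low levels and moved in both comparisons. At day 3 it stood at 4.18 and 4.90 FPKM with HCl against 1.42 and 1.61 in control, and it rose (log2 fold change 1.67 ± 0.23 SE, n = 2 per group, edgeR adjusted p = 1.82e-05). At day 5 RET stood at 1.13 and 1.14 FPKM against 0.07 and 0.06 (log2 fold change 4.16 ± 0.37 SE, edgeR adjusted p = 1.44e-08). With 2-DG at day 5 it was 0.27 and 0.38 FPKM against 0.14 and 0.07 (log2 fold change 1.75 ± 0.38 SE, edgeR adjusted p = 0.000937). At day 7 the direction under 2-DG was the opposite, at 0.04 and 0.02 FPKM against 1.19 and 1.12 (log2 fold change -5.40 ± 0.43 SE, edgeR adjusted p = 3.64e-12). The libraries of the compared groups did not overlap in any of these 4 cases. How often that held over all genes in these comparisons was not counted, so nothing is read from it. RET in the other HCl and 2-DG comparisons is not given here. GDNF, a ligand of the same receptor system, rose with HCl from 0.08 and 0.16 FPKM to 1.92 and 1.79 at day 5 (log2 fold change 3.94). GFRA2, the co-receptor for neurturin, fell with HCl at day 5 from 3.88 and 3.48 FPKM to 0.37 and 0.32 (log2 fold change -3.38), and with 2-DG from 3.24 and 3.85 FPKM to 0.26 and 0.45 (log2 fold change -3.18). Of the 9 listed GDNF family receptors and ligands, 6 passed the filter at days 3 and 5. With HCl at day 5, 3 of these rose and 1 fell, where 20.0% of all genes tested were called in either direction. The filter asks for 1 FPKM in any 2 libraries. A gene low elsewhere can therefore enter this count through HCl or 2-DG libraries where it is high.

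GDF15 RNA was low in most of the 25 groups and stood out in 4 of them, the HCl groups of days 3 and 5 and the 2-DG groups of days 5 and 7. In control it was 0.44 and 0.38 FPKM at day 3, and 1.57 and 1.34 FPKM at day 5. With HCl it was 13 and 12.61 FPKM at day 3 (442 and 435 counts), and 94.75 and 71.57 FPKM at day 5 (3096 and 2673 counts). Both HCl libraries lay above all libraries of the other treatments on each of these days. In the HCl libraries of day 5, GDF15 ranked 353rd and 500th from the highest of all genes by FPKM. As the RNA is from bulk culture, fewer cells of a type and less RNA per cell cannot be told apart in these or any later values.

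**Figure D1:**
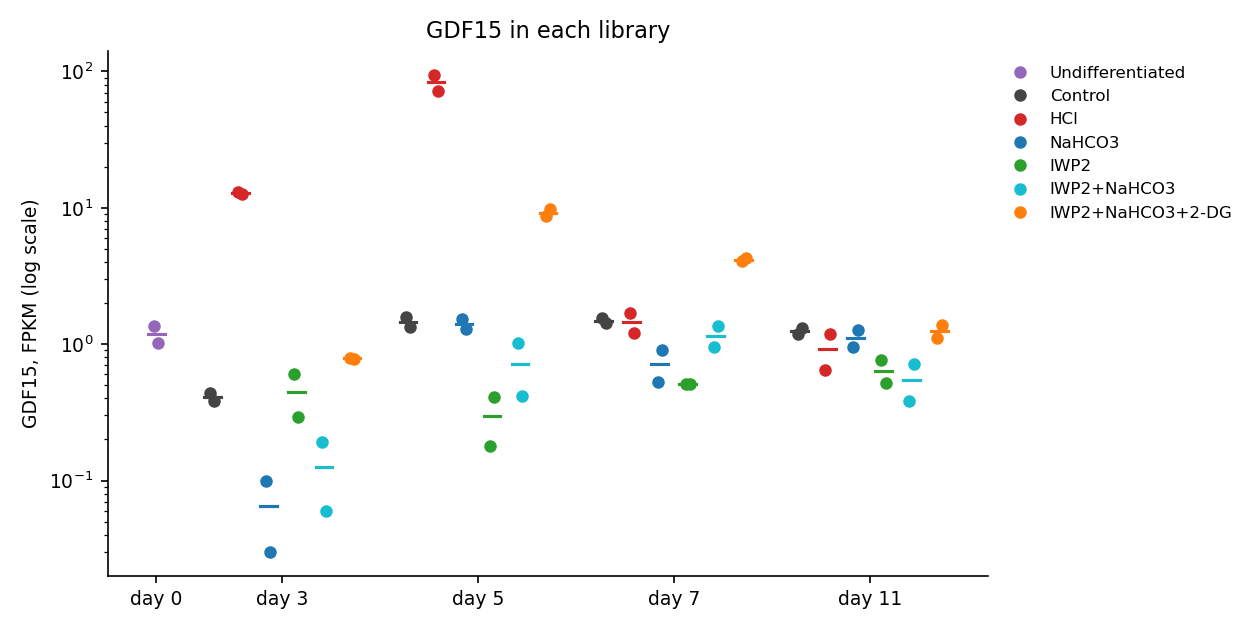
GDF15 level in FPKM (log axis) in each of the 50 libraries, by day and treatment. Each point is 1 library and each short line the mean of the 2 libraries of a group, and the HCl groups of days 3 and 5 lie at means of 12.8 and 83.2 FPKM.

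The high level with HCl was gone by day 7. The HCl libraries then held 1.69 and 1.20 FPKM against 1.55 and 1.43 in control, and at day 11 they held 0.65 and 1.19 FPKM against 1.18 and 1.32. The control range fell inside the HCl range at day 7, and the 2 groups overlapped at day 11 as well. The mean with HCl was 83.2 ± 16.4 FPKM (SD, n = 2) at day 5 and 1.45 ± 0.35 FPKM (SD, n = 2) at day 7, a ratio of 57.6 set across the separately made tables and not tested. In log2 terms the difference between HCl and control was 5.02 ± 0.31 (SE) at day 3, 5.87 ± 0.27 at day 5, 0.01 ± 0.28 at day 7 and -0.36 ± 0.32 at day 11.

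With 2-DG the high values came later and were smaller. At day 3 the 2-DG libraries held 0.79 and 0.78 FPKM against 0.19 and 0.06 with IWP2 and NaHCO3. At day 5 they held 8.70 and 9.72 FPKM against 1.02 and 0.42. At day 7 they held 4.05 and 4.27 FPKM against 0.96 and 1.35, and at day 11 they held 1.10 and 1.39 FPKM against 0.38 and 0.71. The libraries did not overlap on any of the 4 days. The log2 difference was 2.72 ± 0.57 (SE) at day 3, 3.82 ± 0.29 at day 5, 1.94 ± 0.27 at day 7 and 1.22 ± 0.35 at day 11. At day 3 it ranged from 2.15 to 3.68 when single libraries of the 2 groups were left out, and both 2-DG libraries of that day held 29 GDF15 counts although they differed widely in other genes.

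**Figure D2:**
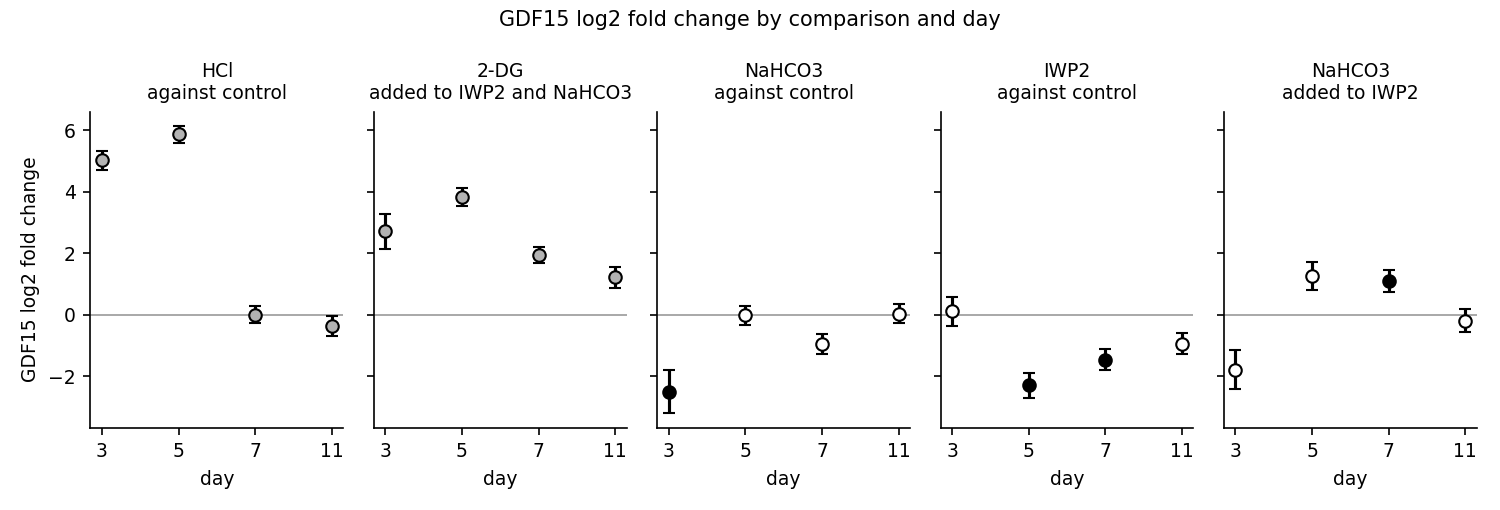
GDF15 log2 fold change (vertical axis) by day in 5 comparisons, with bars of 1 standard error from edgeR. Grey points are descriptive and have no test, black points were called and white points were not; the HCl values drop from 5.87 at day 5 to 0.01 at day 7.

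Set beside each other, mean GDF15 was 16.3 times as high with HCl as with 2-DG at day 3 and 9.03 times as high at day 5. At day 7 the order was the reverse, with the 2-DG mean 2.88 times the HCl mean. These groups differ in IWP2 and NaHCO3 as well as in HCl and 2-DG. Among the 12 groups of days 3 and 5, only 4 of the 11 steps in the ranking of means separated neighbours whose libraries did not overlap. Those steps were HCl at day 5 over HCl at day 3, HCl at day 3 over 2-DG at day 5, 2-DG at day 5 over control at day 5, and NaHCO3 at day 5 over 2-DG at day 3. From 0.785 FPKM (2-DG, day 3) downward, each group overlapped its neighbour, to the lowest level of all, 0.10 and 0.03 FPKM with NaHCO3 at day 3. Among the 13 groups of days 0, 7 and 11, 1 of 12 steps separated neighbours, that between 2-DG at day 7 (mean 4.16 FPKM) and control at day 7 (mean 1.49 FPKM). All other groups there had means between 0.51 and 1.49 FPKM, with undifferentiated cells at 1.35 and 1.02 FPKM.

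With NaHCO3 alone GDF15 was called lower at day 3 and was not called on the other days. At day 3 GDF15 stood at 0.10 and 0.03 FPKM (4 counts and 1 count) with NaHCO3 against 0.44 and 0.38 FPKM (21 and 13 counts) in control, and it fell (log2 fold change -2.50 ± 0.71 SE, n = 2 per group, edgeR adjusted p = 0.0245). This call rests on few counts and was lost when any 1 of these 4 libraries was left out, with a fold change between -3.63 and -1.93. At day 5 the values overlapped, at 1.52 and 1.30 FPKM against 1.57 and 1.34 (log2 fold change -0.01, edgeR adjusted p = 0.997). At day 7 they were 0.53 and 0.90 FPKM against 1.55 and 1.43 (log2 fold change -0.94 ± 0.32 SE, edgeR adjusted p = 0.0186), a difference that passed the p threshold and not the size threshold. At day 11 the log2 fold change was 0.03 (edgeR adjusted p = 0.949). The change in the NaHCO3 effect from day 3 to day 5 was 2.48 ± 0.78 (SE) on the log2 scale and did not pass the test (edgeR adjusted p = 0.0533).

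GDF15 fell with IWP2 at days 5 and 7. At day 5 GDF15 stood at 0.18 and 0.41 FPKM with IWP2 against 1.57 and 1.34 in control (log2 fold change -2.29 ± 0.40 SE, n = 2 per group, edgeR adjusted p = 0.00038). At day 7 it stood at 0.51 FPKM in both IWP2 libraries against 1.55 and 1.43 FPKM (log2 fold change -1.45 ± 0.34 SE, edgeR adjusted p = 0.00066). Neither pair of groups overlapped, and both calls held in every alternative fit that was run. At day 3 the IWP2 libraries, at 0.60 and 0.29 FPKM, enclosed the control range (log2 fold change 0.12, edgeR adjusted p = 0.992). At day 11 the values were 0.76 and 0.52 FPKM against 1.18 and 1.32 (log2 fold change -0.93, edgeR adjusted p = 0.0237), below the size threshold. The IWP2 effect at day 5 was lower than that at day 3 by an interaction test (difference -2.41 ± 0.64 SE in log2 fold change, edgeR adjusted p = 0.0238), a call lost without any of 5 of the 10 libraries that were left out in turn. IWP2 cultures at day 7 also carried far more cardiomyocyte RNA, with the 6 cardiomyocyte markers summing to 5263 and 4854 FPKM against 358 and 409 FPKM in control. The 8 liver and foregut endoderm markers summed to 148 and 357 FPKM against 1388 and 1410 FPKM. The part of these shifts in the GDF15 result was not tested.

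GDF15 rose when NaHCO3 was added to IWP2 at day 7. The values were 0.96 and 1.35 FPKM with both agents against 0.51 FPKM in each IWP2 library (log2 fold change 1.11 ± 0.35 SE, n = 2 per group, edgeR adjusted p = 0.00951). The call was lost without the first IWP2 library or without the second library with both agents. Cardiomyocyte markers were lower with both agents, at 472 and 510 FPKM against 5263 and 4854 FPKM. Liver and foregut markers were higher, at 1170 and 1215 FPKM against 148 and 357, as were stroma markers, at 2285 and 2172 FPKM against 300 and 462. The part of these shifts in the result was not tested. At days 3, 5 and 11 the log2 fold changes of -1.78, 1.27 and -0.18 were not called (edgeR adjusted p = 0.105, 0.0727 and 0.729). At day 7 the NaHCO3 effect was higher with IWP2 than without it (difference 2.05 ± 0.48 SE in log2 fold change, edgeR adjusted p = 0.000862), and this held in every alternative fit. Since NaHCO3 and IWP2 are each compared with the same control libraries, their separate fold changes share those values.

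Over the control course, GDF15 rose from 0.44 and 0.38 FPKM at day 3 to 1.57 and 1.34 FPKM at day 5 (log2 fold change 1.86 ± 0.37 SE, n = 2 per group, edgeR adjusted p = 0.000477). This call held in every alternative fit. Later control levels were not called different, with a log2 fold change of -0.19 from day 7 to day 11 (edgeR adjusted p = 0.663), 0.16 from undifferentiated cells to day 7 (edgeR adjusted p = 0.661) and -0.04 from undifferentiated cells to day 11 (edgeR adjusted p = 0.932). The libraries of day 7, at 1.55 and 1.43 FPKM, nevertheless all lay above those of day 11, at 1.18 and 1.32, and of undifferentiated cells, at 1.35 and 1.02.

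Among genes of the integrated stress response, 18 of the 21 tested (of 22 listed) rose with HCl at day 5 and none fell, where 9.84% of all genes tested were called higher. Their median log2 fold change was 2.26, against -0.02 over all genes tested. With 2-DG at day 5, 19 of 21 rose and none fell, where 7.04% of genes were called higher, and the median was 3.45. CHAC1, which degrades glutathione, stood at 28.12 and 19.62 FPKM with HCl against 0.76 and 0.33 in control (log2 fold change 5.45 ± 0.31 SE, n = 2 per group, edgeR adjusted p = 1.97e-11). With 2-DG it stood at 122.19 and 118.87 FPKM against 0.54 and 0.60 (log2 fold change 7.89 ± 0.31 SE, edgeR adjusted p = 1.99e-13). TRIB3, a pseudokinase induced by ATF4 and CHOP, rose from 0.63 and 0.70 FPKM to 20.08 and 16.19 FPKM with HCl (log2 fold change 4.81), and from 0.81 and 0.85 FPKM to 76.31 and 81.24 FPKM with 2-DG (log2 fold change 6.73). ASNS, asparagine synthetase, rose to 42.45 and 41.32 FPKM from 4.45 and 3.87 FPKM with HCl, and to 114.63 and 115.10 FPKM from 3.07 and 2.81 FPKM with 2-DG. DDIT3 rose by 2.72 on the log2 scale with HCl and by 4.26 with 2-DG. ATF4 itself rose with 2-DG (log2 fold change 1.80) and stood at 211.55 and 194.25 FPKM with HCl against 132.30 and 128.64, a log2 fold change of 0.68 that was below the size threshold.

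In all of these genes both 2-DG libraries were higher than both HCl libraries, while GDF15 stood the other way. Across the list, 20 of the 21 genes tested had both HCl libraries below both 2-DG libraries at day 5, and the 1 exception, named after its values were seen, was the cystathionine lyase gene CTH. Of all genes tested, 35.1% lay that way round and 42.3% the other way. At day 3, 15 of 21 lay below and 4 above, where 26.8% and 32.8% of all genes did. At day 7, 18 of 21 lay below and 2 above, where 33.9% and 41.7% of all genes did. At day 7 GDF15 also stood lower with HCl than with 2-DG, unlike at days 3 and 5.

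**Figure D3:**
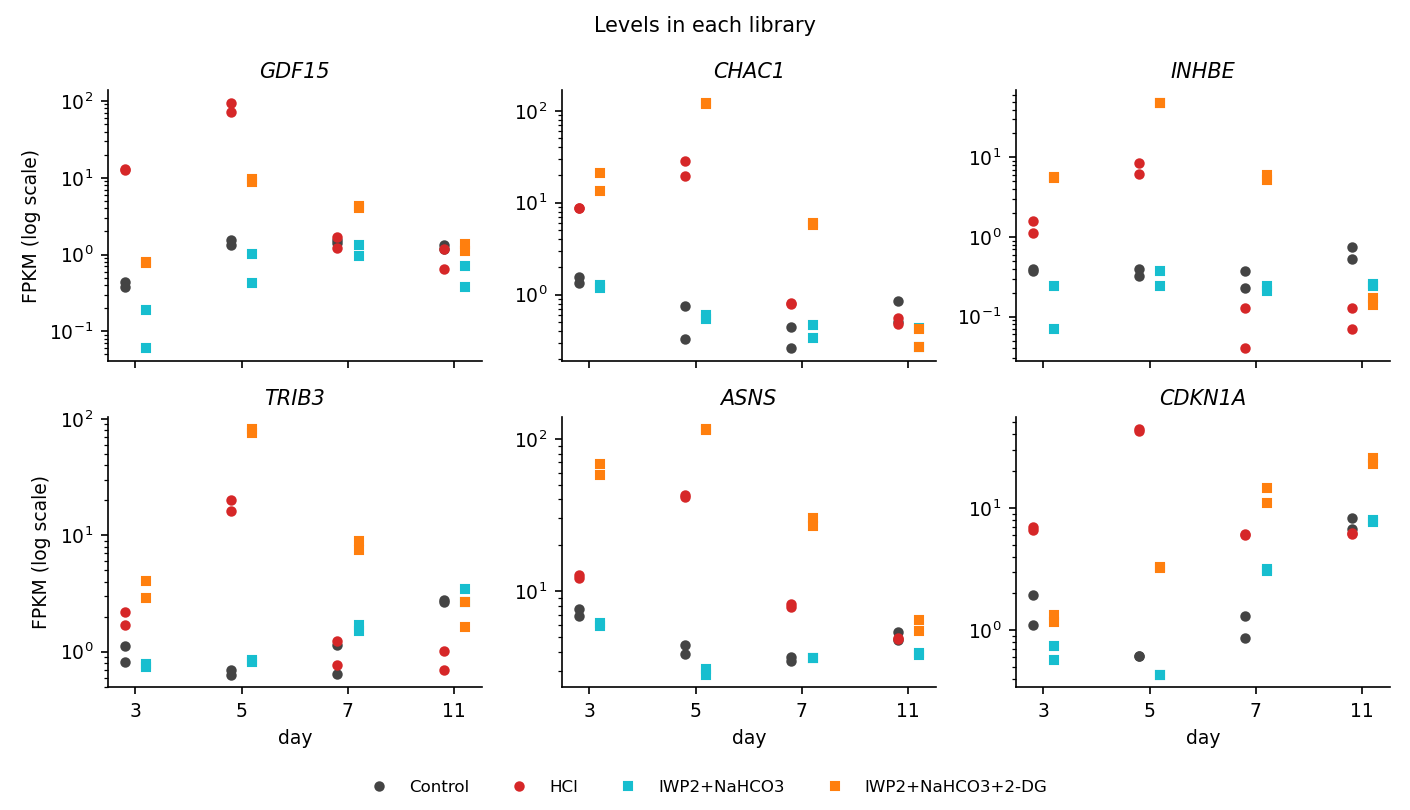
Levels in FPKM (log axes) of GDF15, CHAC1, INHBE, TRIB3, ASNS and CDKN1A by day in control, HCl, IWP2+NaHCO3 and IWP2+NaHCO3+2-DG libraries, 1 point per library. At day 5 the HCl libraries are the highest for GDF15 and CDKN1A, and the 2-DG libraries are the highest for the other 4 genes.

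The day course of the list followed the days on which GDF15 was high only in part. With HCl, 7 of 21 genes rose at day 3 (5.94% of all genes tested were called higher), at a median log2 fold change of 0.86 against 0.01 over all genes. At day 7, 4 rose and none fell (6.36% called higher), and these were CHAC1, ASNS, the glycoprotein hormone STC2 and the lipoprotein receptor VLDLR. At day 11 none rose and 6 fell (12.7% called lower), among them TRIB3 and ATF3. With 2-DG, 16 of 21 rose at day 3 (1.5% called higher), and the count was 14 or 16 without 1 or the other of the 2-DG libraries of that day. At day 7, 11 rose and none fell (7.1% called higher), with TRIB3 at 7.51 and 8.99 FPKM against 1.52 and 1.68 (log2 fold change 2.45). At day 11, 2 rose and 4 fell (9.32% called higher, 11.8% lower). At day 3, CHAC1 was already at 21.08 and 13.24 FPKM with 2-DG against 1.28 and 1.19, and ASNS at 68.71 and 58.03 FPKM against 6.17 and 5.90, while GDF15 remained below 1 FPKM. Without 1 or the other 2-DG library the log2 fold changes were 3.47 and 4.32 for CHAC1, and 3.32 and 3.73 for ASNS. With HCl on the same day, ASNS was at 12.70 and 12.17 FPKM against 6.89 and 7.61 and was not called (log2 fold change 0.86), while GDF15 was near 13 FPKM.

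Genes of the unfolded protein response of the endoplasmic reticulum (ER) were called mainly with 2-DG, as the counts show. Of its 14 listed genes, all tested, 11 rose with 2-DG at day 3 and 13 at day 5, where 1.5% and 7.04% of all genes were called higher, with median log2 fold changes of 1.35 and 2.52. Leaving out either 2-DG library of day 3 gave 10 or 11. With HCl, 1 of 14 rose at day 3 (the chaperone DNAJB9, log2 fold change 1.06), 1 at day 5 (HERPUD1, a protein of ER-associated degradation, 1.55), none at day 7 and 1 at day 11 (DNAJB9, 1.17), and none fell. Of all genes, 5.94% were called higher with HCl at day 3, 9.84% at day 5 and 6.36% at day 7, so 1 of 14 is near the background. Nothing is read from the 1 gene called with HCl at day 11. With 2-DG, HSPA5, the main ER chaperone, rose by 1.69 on the log2 scale at day 3, and HERPUD1 rose by 2.36 at day 3 and 3.93 at day 5. Without 1 or the other 2-DG library of day 3 these day 3 values were 1.59 and 1.77 for HSPA5, and 2.13 and 2.56 for HERPUD1. At day 5, 13 of the 14 genes had both 2-DG libraries above both HCl libraries, as had 35.1% of all genes. At day 7, 1 gene rose with 2-DG (7.1% of all genes called higher), while GDF15 was still above its reference. With edgeR, none was called with HCl at day 7 or with 2-DG at day 11, although 8 of 14 had an unadjusted p below 0.05 in each of these, and DESeq2 called 0 in both.

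Of 21 p53 target genes, 11 rose and 1 fell with HCl at day 5, where 20.0% of all genes were called, and the median log2 fold change was 1.00. With 2-DG at day 5, 4 rose and 2 fell, where 16.5% of all genes were called, and the median was 0.10. CDKN1A, the cell cycle inhibitor p21, was the largest mover, at 43.80 and 42.57 FPKM with HCl against 0.62 and 0.61 (log2 fold change 6.16 ± 0.30 SE, n = 2 per group, edgeR adjusted p = 2.13e-12). With 2-DG it was 3.22 and 3.28 FPKM against 0.43 in both reference libraries (log2 fold change 3.08 ± 0.31 SE, edgeR adjusted p = 1.47e-07). PHLDA3, an inhibitor of AKT, rose by 3.03 with HCl on the log2 scale, and BBC3, which encodes the cell death protein PUMA, by 2.62. MDM2, the ubiquitin ligase that p53 induces as its own inhibitor, stood at 6.00 and 6.22 FPKM with HCl against 5.84 and 6.09 at day 5, and was not called with HCl or 2-DG on any day. At day 5, 18 of the 21 genes had both HCl libraries above both 2-DG libraries and 2 had both below, against 42.3% and 35.1% of all genes. At day 3, 12 had both above and 2 both below (32.8% and 26.8% of all genes), and at day 7, 8 had both above and 9 both below (41.7% and 33.9%), so the order of day 5 was not seen at day 7. With HCl, CDKN1A rose at day 3 (6.58 and 6.97 FPKM against 1.93 and 1.10) and stayed raised at day 7 (6.15 and 5.99 FPKM against 0.86 and 1.31, log2 fold change 2.52), when GDF15 did not differ. At day 3, 3 of 21 rose with HCl (5.94% of all genes called higher) and 1 with 2-DG (1.5% called higher; 0 or 2 without 1 or the other 2-DG library). At day 7, 2 rose with HCl and 2 with 2-DG, close to the 6.36% and 7.1% of all genes called higher. On that day 2 fell with HCl and none with 2-DG, and nothing is read from these falls.

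**Figure D4:**
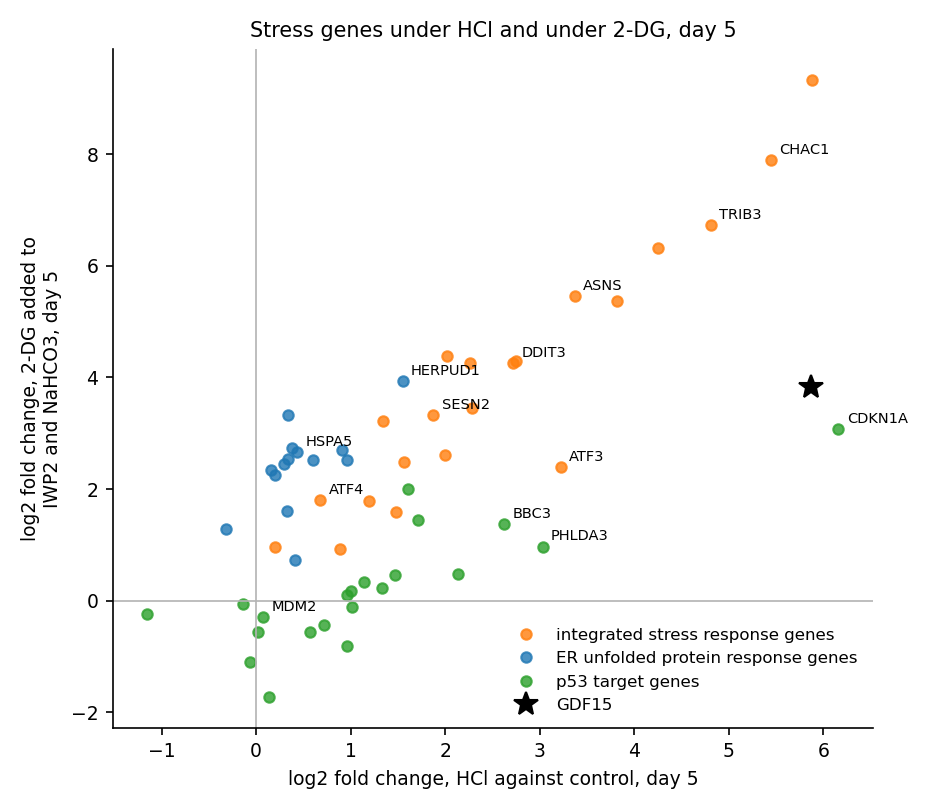
Log2 fold changes at day 5 with HCl (horizontal axis) and with 2-DG (vertical axis) for the tested genes of 3 stress lists, with GDF15 as a star and some genes labelled. The ER genes lie between -0.32 and 1.55 on the HCl axis (median 0.36) and mostly above 2 on the 2-DG axis. GDF15 lies near CDKN1A, at 5.87 and 3.82.

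Immediate early genes, which are switched on within minutes of many stimuli, also moved. With HCl, 5 of 9 tested (of 11 listed) rose at day 3 and 7 at day 5, where 5.94% and 9.84% of all genes were called higher, and none fell on either day. EGR1 stood at 2.87 and 1.94 FPKM against 0.40 and 0.49 at day 5 (log2 fold change 2.47 ± 0.33 SE, n = 2 per group, edgeR adjusted p = 4.24e-06). ATF3, a stress factor also counted in the integrated stress response, stood at 35.76 and 30.92 FPKM against 3.24 and 4.12 FPKM (log2 fold change 3.22). With 2-DG, 2 rose at day 3 (also without either 2-DG library) and 5 at day 5, where 1.5% and 7.04% of all genes were called higher, with EGR1 at 0.80 and 1.10 FPKM against 1.09 and 0.87 at day 5 and not called. JUN rose at days 3 and 5 under both agents, by 2.29 and 2.50 on the log2 scale with HCl and by 1.78 and 2.87 with 2-DG (at day 3 by 1.71 and 1.85 without 1 or the other 2-DG library). At day 7, 1 of 9 fell with HCl, a count from which nothing is read. With 2-DG at day 7 edgeR called none, with 6 of 9 at an unadjusted p below 0.05, and DESeq2 called 1. At day 11, 3 of 9 fell and none rose with HCl (12.7% of all genes called lower), and 3 rose and 1 fell with 2-DG (9.32% called higher, 11.8% lower).

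**Figure D5:**
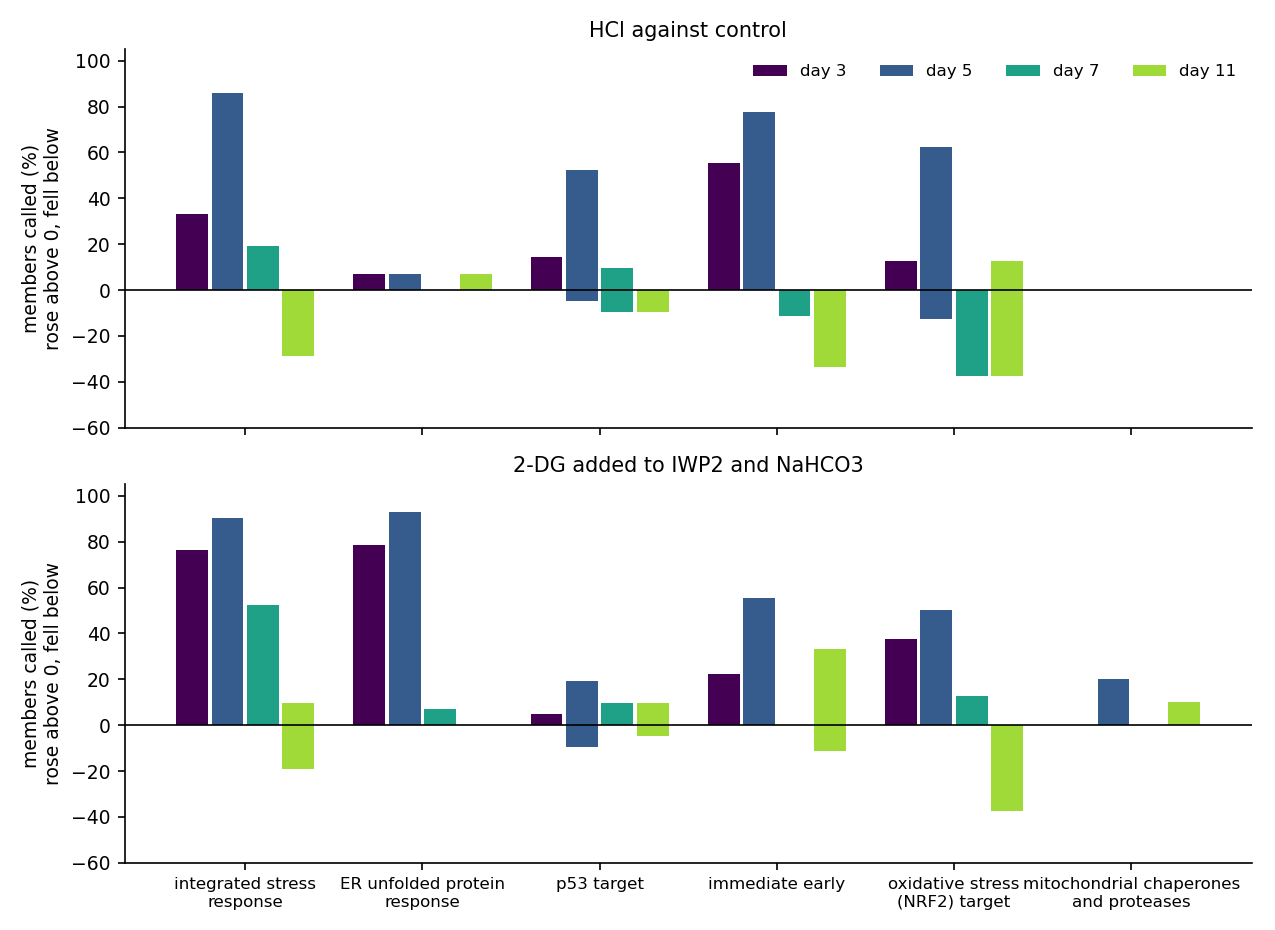
Percent of tested members called (vertical axis) by day in 6 gene lists, upward for genes that rose and downward for genes that fell, with HCl against control above and 2-DG added to IWP2 and NaHCO3 beneath. The ER list was called in 1 or 0 of 14 genes on each day with HCl and in 13 of 14 at day 5 with 2-DG.

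Few of the upstream kinase genes and mitochondrial stress genes were called. Of 8 genes for eIF2alpha kinases and their relay, 1 rose at day 3 with HCl (EIF2AK3, log2 fold change 1.22, 5.94% of all genes called higher). At day 5, 2 rose with HCl (9.84% called higher), the ER-resident kinase gene EIF2AK3 (log2 fold change 1.18) and the phosphatase subunit gene PPP1R15B (1.01). With 2-DG at day 5 (7.04% called higher), EIF2AK3 rose (1.68) and the other 7 were not called. None of 10 mitochondrial chaperones and proteases was called with HCl on any day by edgeR or by DESeq2, although 3, 9, 1 and 7 of them had an unadjusted edgeR p below 0.05 at days 3, 5, 7 and 11. With 2-DG, the mitochondrial chaperone HSPA9 (log2 fold change 1.69) and the protease LONP1 (2.04) rose at day 5, and the protease subunit AFG3L2 (1.27) at day 11, where 7.04% and 9.32% of all genes were called higher. Of 8 tested NRF2 targets, 5 rose and 1 fell with HCl at day 5, and 4 rose with 2-DG, where 20.0% and 16.5% of all genes were called in either direction. HMOX1, haem oxygenase, was the 1 that fell (log2 fold change -2.52 with HCl).

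Other secreted stress hormones did not share 1 pattern. INHBE, which encodes the liver hormone subunit inhibin beta E, stood at 47.96 and 48.60 FPKM with 2-DG at day 5 against 0.38 and 0.24 (log2 fold change 7.43 ± 0.26 SE, n = 2 per group, edgeR adjusted p = 6.26e-14). With HCl it stood at 8.60 and 6.26 FPKM against 0.32 and 0.40 (log2 fold change 4.41 ± 0.26 SE, edgeR adjusted p = 4.2e-11). FGF21, another stress hormone known as an ATF4 target, did not pass the filter. It was highest with 2-DG at day 5, at 0.11 and 0.55 FPKM, and was listed at 0 in the control and the IWP2 with NaHCO3 libraries of that day. The cytokines LIF, IL6 and IL11 rose with HCl at day 5, by 4.16, 4.72 and 5.09 on the log2 scale, and none of these 3 was called with 2-DG on that day. Of the 9 hormones tested, 7 rose and 2 fell with HCl at day 5, the falls being VEGFA and ANGPTL4 (named after their values were seen), and 3 rose and 1 fell with 2-DG. Of all genes, 20.0% were called with HCl and 16.5% with 2-DG. The other 3 of the 12 listed hormones did not pass the filter, which asks for 1 FPKM in any 2 libraries. A gene low elsewhere can enter these counts through HCl or 2-DG libraries where it is high, so the counts are a description. Among the 20 tested ligands of the TGF-beta superfamily, to which GDF15 belongs, 6 rose and 8 fell with HCl at day 5, with a median log2 fold change of -0.27, and 4 rose and 5 fell with 2-DG, against the same shares of 20.0% and 16.5% over all genes. FURIN, a protease that cleaves such precursors, was not called with HCl or 2-DG on any day and stood at 48.76 and 50.72 FPKM with HCl against 52.28 and 48.79 at day 5. PCSK7, a related protease, rose at day 5 with HCl (log2 fold change 2.02) and with 2-DG (1.56).

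In the comparisons where GDF15 fell, the counts of these stress lists lay near the share over all genes or below it, and nothing is read from them. With NaHCO3 at day 3, 0 of 21 integrated stress response genes, 0 of 14 ER genes and 0 of 21 p53 targets were called by edgeR or DESeq2, where edgeR called 4.08% of all genes. At an unadjusted edgeR p below 0.05 these counts were 8, 9 and 7. With IWP2 at day 5, 2 of 21 integrated stress response genes rose, none of the 14 ER genes or 21 p53 targets was called by edgeR or DESeq2 (4 and 8 had an unadjusted edgeR p below 0.05), and edgeR called 6.77% of all genes. With IWP2 at day 7, 2 integrated stress response genes rose and 1 fell, 1 ER gene fell, and 2 p53 targets rose and 1 fell, where 16.4% of all genes were called.

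The genes whose pattern was most like that of GDF15 were ranked by the lower of 2 Pearson correlations of mean log2(FPKM + 0.1), over the 12 groups of days 3 and 5 and the 13 groups of days 0, 7 and 11, among 16156 genes. The first 10 were SLC7A5, INHBE, ADM2, CHAC1, AC096677.1, ACTN1, SESN2, MSRA, SLC52A2 and AL135998.1, with lower correlations from 0.614 to 0.716. The groups of a table share their cell line and deposit, and these correlations are given as a description. SLC7A5, a large neutral amino acid transporter, came first, with r = 0.716 and 0.728. Its mean was 51.4 ± 0.31 FPKM (SD, n = 2) in control at day 5, 157.7 ± 0.98 with HCl and 261.1 ± 20.7 with 2-DG. ADM2, a peptide hormone of the calcitonin family, had means of 0.81, 5.05 and 20.9 FPKM in the same groups. SESN2, an inhibitor of mTORC1 signalling, had means of 5.98, 21.3 and 76.8 FPKM. All 3 were higher with 2-DG than with HCl at day 5, the reverse of GDF15. AC096677.1, also among the 10, stood the same way as GDF15, with day 5 means of 2.37 FPKM with HCl and 1.775 with 2-DG. For CDKN1A, r was 0.861 over days 3 and 5 and 0.256 over days 0, 7 and 11, and the lower of these ranked it 646th. For ATF3 the values were 0.813 and 0.04. None of the 10 genes stayed among the first 10 when the HCl and 2-DG groups were left out, and 3 stayed with Spearman's rank correlation.

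Markers of cell types moved with treatment as well. With HCl at day 5, the 6 pluripotency markers summed to 408 and 409 FPKM against 321 and 299 FPKM in control, and all 6 were at 1 FPKM or more in the mean against 4 in control. On the same day the 5 fibroblast and stroma markers summed to 45.6 and 44.9 FPKM against 733 and 848 FPKM, and the 8 liver and foregut markers to 31.1 and 34.0 FPKM against 309 and 358 FPKM. With 2-DG at day 5 the pluripotency sum was 167 and 156 FPKM against 251 and 228 FPKM, and the stroma sum was 405 and 460 FPKM against 1529 and 1613 FPKM. At day 7 with 2-DG the cardiomyocyte sum was 2899.96 and 2862.37 FPKM against 472.06 and 509.59 FPKM. The liver and foregut sum was 124.26 and 94.82 FPKM against 1170.32 and 1214.59. The stroma sum was 331.7 and 265.33 FPKM against 2285.41 and 2171.6. With HCl at day 3 the pluripotency sum was 670.0 and 781.27 FPKM against 413.39 and 473.04 in control. The 4 neural ectoderm markers then summed to 104.49 and 104.81 FPKM against 44.56 and 52.68. The part of these shifts in the GDF15 levels was not tested. Trophoblast and macrophages, both known for high GDF15, were looked for through sums of listed markers. The 10 trophoblast and amnion markers summed to 50.1 and 51.4 FPKM with HCl at day 5 against 53.1 and 52.4 FPKM in control. Of these markers, 2 reached 1 FPKM in the mean with HCl and 4 in control, and only CGB5 and PSG1 were at 0 in both groups. With 2-DG the trophoblast and amnion sum was 68.8 and 67.7 FPKM at day 5 against 42.2 and 40.4 in its reference. At day 7 it was 45.5 and 49.0 against 20.4 and 20.9, with 6 markers at 1 FPKM or more in the mean against 3. At day 11 it was 37.5 and 37.1 against 16.2 and 12.9. With HCl the sum was 84.85 and 81.93 FPKM against 35.06 and 34.56 at day 7. At day 11 it was 49.0 and 56.8 against 20.4 and 24.5. With HCl at day 3 this sum was 24.83 and 29.95 FPKM against 32.31 and 29.47. The sum can move through any of its 10 genes and does not measure trophoblast alone. Its part in the GDF15 result was not tested. The 5 macrophage markers summed to at most 1.09 FPKM in any of the 50 libraries, and none reached 1 FPKM in the mean of any group.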

How the data were processed

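RNA-seq counts and FPKM of 50 libraries were analysed. Per the submitters' processing notes, the tools were cutadapt 1.9.1, HISAT2 2.0.1 and HTSeq 0.6.1 with genome build GRCh37, and strand settings are not given in the sources used here. The authors deposited counts per gene and FPKM per gene side by side, in 2 tables, and FPKM recomputed from the deposited counts and lengths agreed in every library. Levels are the deposited FPKM.

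A gene was kept in a table where 2 or more libraries reached 1 FPKM (17286 for days 3 and 5, 18451 for days 0, 7 and 11). Counts were fitted per table with edgeR 4.0.16 (TMM, quasi-likelihood, robust, 1 mean per group) in R 4.3.3. Standard errors are the log2 fold change over the square root of F. Alternatives were DESeq2 1.42.0, RLE size factors, no filter, libraries of the compared days only, a replicate block and leaving out each library. On simulated counts for NaHCO3 against control at day 3 (17286 genes), 9% of genes changed 2-fold and 69% of genes changed 4-fold were called, at 10 to 70 expected counts, and for IWP2 against control at day 7 (18451 genes) 18% and 78% were.

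GDF15 and GFRAL, the gene and marker lists and the tests were chosen with earlier results of these data known. The genes named from each list are its most changed called members and a panel of 14 known stress genes, and the genes most like GDF15 are the 10 with the highest lower correlation. Of the listed genes, 5 were matched by gene identifier under older symbols (CARS, WARS, KIAA0141, C12orf5 and IL8) and 144 by symbol. ATF3, SLC7A11, STC2, FGF21 and INHBE are in 2 lists each. Promoters are RefSeq's for GRCh38.p14, and no coordinate was converted between builds.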

Additional observations from a re-analysis of the deposited data

Results flagged for a closer look

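In 3 cases the effect of one agent on GDF15 differed between days or backgrounds by a test of the difference itself, with edgeR adjusted p below 0.05 over all genes. The IWP2 effect was lower at day 5 than at day 3, by -2.41 ± 0.64 (SE) on the log2 scale (edgeR adjusted p = 0.0238, 0.000144 to 0.313 over the alternatives). The effect of NaHCO3 added to IWP2 was higher at day 5 than at day 3, by 3.04 ± 0.79 (edgeR adjusted p = 0.0169, 4.43e-05 to 0.175 over the alternatives). The effect of NaHCO3 at day 7 was higher with IWP2 than without it, by 2.05 ± 0.48 (edgeR adjusted p = 0.000862, 6.85e-05 to 0.00963 over the alternatives). Each group has 2 libraries, and the day 3 groups in the first 2 cases hold few GDF15 counts.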

How the results depend on the processing

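Each of the 50 libraries limits the low GDF15 values, since 1 read is worth up to 0.034 FPKM, and 2 libraries per group leave small differences undecided. The called falls with IWP2 at days 5 and 7, the control rise from day 3 to day 5 and the NaHCO3 difference with and without IWP2 at day 7 kept their direction and their call in every alternative. Without the filter on low values and with DESeq2, GDF15 was also called for NaHCO3 added to IWP2 at day 3 (-1.786 and -1.81 on the log2 scale) and at day 5 (1.26 and 1.27), and for the change in the NaHCO3 effect from day 3 to day 5 (2.51 and 2.56). Differences near 0 changed sign, namely NaHCO3 against control at day 5 (0.01 without the filter and 0.001 with DESeq2), control day 7 against undifferentiated cells (-0.062 with the replicate block) and control day 11 against undifferentiated cells (0.001 without the filter). The cause was not tested. Samples of the same number showed little shared deviation (r from -0.11 to 0.108 over 60 pairs of groups, 1 of them above 0.1). Noise in single genes can hide a shared origin in such correlations, so they cannot tell whether the numbers pair the libraries. The replicate block changed no call of GDF15. Among p53 targets 0 rose with 2-DG at day 3 using libraries of that day only, and 2 ER genes rose with HCl at day 5 without the filter. Of the 10 genes most like GDF15, 3 stayed with Spearman's correlation and 0 without the HCl and 2-DG groups.

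Leaving out single libraries gave these ranges of the GDF15 log2 fold change. With HCl against control they were -0.26 to 0.22 at day 7 and -0.855 to 0.022 at day 11, with 2-DG 2.152 to 3.676 at day 3, 3.331 to 4.612 at day 5 and 0.814 to 1.737 at day 11, and with NaHCO3 against control -3.63 to -1.93 at day 3 (never called without one of its 4 libraries), -0.12 to 0.11 at day 5, -1.35 to -0.63 at day 7 (called without the second NaHCO3 library) and -0.20 to 0.24 at day 11. With IWP2 they were -0.48 to 0.54 at day 3 and -1.23 to -0.68 at day 11 (called without the first control or the first IWP2 library). For NaHCO3 added to IWP2 they were 0.45 to 2.01 at day 5 (called without the second library of either group or without either 2-DG library of day 3), 0.85 to 1.35 at day 7 and -0.70 to 0.22 at day 11. Control day 7 and day 11 against undifferentiated cells gave -0.022 to 0.362 and -0.21 to 0.17. Differences between effects gave 1.92 to 3.62 for NaHCO3 and -3.15 to -1.81 for IWP2 from day 3 to day 5 (the second not called without either control library of day 3, the first control or IWP2 library of day 5 or the first IWP2 library of day 3). They gave 2.233 to 3.996 for NaHCO3 added to IWP2 from day 3 to day 5, not called without the first library of either group at day 5, the first IWP2 library or the second IWP2 with NaHCO3 library of day 3. From day 7 to day 11 they gave 0.66 to 1.38 for NaHCO3 and -1.81 to -0.89 for NaHCO3 added to IWP2, and with against without IWP2 -0.23 to 1.86 at day 3 and -0.73 to 0.19 at day 11. ER genes that rose with HCl numbered 0 to 1 at day 3 and 1 to 2 at day 5, and p53 targets that rose with 2-DG at day 3 numbered 0 to 2. Genes called with 2-DG at day 3 went from 620 to 335 using libraries of that day only, and to 2427 without its second 2-DG library.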
